A study of Mus musculus with 36 samples.

Results

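The genes described here are the enzymes that make and break down endocannabinoids, together with receptors on which cannabidiol is known to act. They were taken by name: rows of the deposited tables whose symbol equalled Cnr2, Trpv2, Pparg, Daglb, Napepld, Mgll, Abhd6, Abhd12, Faah or Naaa, which found 10 of the 19879 genes listed in all. Their level was measured by RNA sequencing in 12 groups of 3 libraries of BV-2, a line of immortalised microglia from mouse. At each of 2 exposure times, 4 h and 24 h, cells received DMSO, ethanol (EtOH), or lipopolysaccharide (LPS) alone or together with a drug. The drugs were cannabidiol (CBD) and the fumaric acid esters dimethyl fumarate (DMF) and monomethyl fumarate (MMF). LPS, the bacterial product that activates microglia, was given at 600 ng/mL, DMF and MMF at 30 µM and CBD at 6 µM. The vehicle was at 0.2% in every group, DMSO for the fumarates and EtOH for CBD, and which vehicle went with LPS alone is not given in the labels. The serum of the medium was lowered for all LPS experiments. A single cell line in culture was used throughout, so the values are those of this line and not of microglia in tissue. By the study's methods the experiments were done 3 times, which is not said to mean separate cultures. The titles number the replicates, but no label ties a number to an experiment. The main fits leave these numbers out, so their p-values measure the spread between these libraries. A replicate block was fitted as an alternative.

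Endocannabinoids are lipid messengers cut from membrane lipids on demand. 2-arachidonoylglycerol is made from diacylglycerol by diacylglycerol lipases, of which Daglb encodes the form that prevails in macrophages and microglia, and it is hydrolysed by the products of Mgll, Abhd6 and Abhd12. N-acylethanolamines, which include anandamide, are released from their membrane precursors by the phospholipase of Napepld and are broken down by Faah and, in the lysosome, by Naaa. Both messengers act on the cannabinoid receptor encoded by Cnr2, which is found mainly on immune cells. Trpv2, a cation channel, and Pparg, a lipid-sensing nuclear receptor, are known targets of CBD.

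The number of counted reads in a library ranged from 14110424 to 26676607 over the 36 libraries, and mitochondrial genes took 1.25 to 2.32% of them. The labelled cell type was checked against its markers. Of 11 microglial and macrophage markers, 10 were listed, and Sall1 was not. Csf1r, at a median level of 10025, and Cd68, at 5223, were the highest of them. The lowest were Cx3cr1 at 174, Tmem119 at 75.9, Aif1 at 70.5 and P2ry12 at 43.5, with Cx3cr1 down to 9.36 in a library. Defining markers of neurons (Rbfox3), oligodendrocytes (Mog) and fibroblasts (Col1a2) had a median of 0, whereas Mbp, which is also used as an oligodendrocyte marker, stood at 1101. The percentage of mitochondrial reads was 1.25 to 1.4 in the libraries of LPS with CBD at 24 h and 1.44 to 2.32 in those of LPS at 24 h.

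Levels are given as reads divided by a size factor set jointly over the 36 libraries, which makes them comparable between groups, and ± marks the SD over 3 libraries. Fold changes are log2 values of the first named group over the second, from limma on the authors' normalized counts of the 6 libraries concerned, and their errors are standard errors (SE). A gene was called changed at a Benjamini-Hochberg adjusted p below 0.05 over all genes tested. Where libraries are said not to overlap, the share of all genes tested for which this held serves for comparison. With LPS this share was 35.7% (4 h) and 39.9% (24 h) over DMSO, and 31.4% and 37.6% over EtOH. Over LPS it was 30.1% and 42.4% with DMF, 13.5% and 9% with MMF, and 10.2% and 58.7% with CBD. For DMF over MMF it was 29.6% and 39.3%, and for 24 h over 4 h it was 58.5 to 68.7%. In bulk RNA, less transcript per cell and fewer cells carrying it cannot be told apart.

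All 10 genes were listed in each of the 30 deposited tables, but 2 of them were close to absent. Pparg had 28 reads in the 36 libraries together, with 0 to 4 reads in a library, and Abhd6 had 65 reads, with 0 to 10. Neither reached a normalized count of 10 in 3 libraries of any comparison, so neither was tested, and differences between groups were not detectable at this depth. The 3 libraries of LPS with CBD at 4 h each had 0 Pparg reads, a count that allows up to 3 reads in a library. The remaining 8 genes were tested in all comparisons, and none of them fell below a level of 27.3 in any library.

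Per kilobase of exon, which allows genes to be compared, Trpv2 was the most abundant transcript of the set. Its level averaged 580 per kilobase over the 12 groups, against 142 for Napepld and 63.5 for Abhd12. Naaa at 30.0, Cnr2 at 29.7, Mgll at 24.8, Daglb at 19.9 and Faah at 17.6 per kilobase lay close together. Abhd6 and Pparg were at 0.242 and 0.101 per kilobase. The exon lengths come from GENCODE M39, in which some genes reach beyond their deposited coordinates. Mgll starts at base 88652108 there and at 88701394 in the deposited tables. A length may therefore hold exons that were not counted. The order below Trpv2 depended on the length used. With the length of the canonical transcript in place of all annotated exons, a choice added after the data had been seen, Abhd12 at 431 per kilobase passed Napepld at 252, and Cnr2 at 31.7 per kilobase became the lowest of the tested genes.

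**Figure D1:**
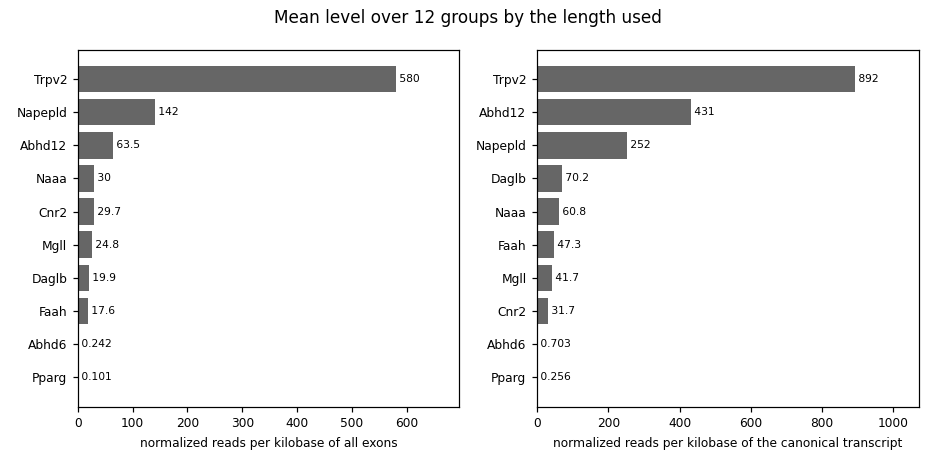
Mean level of the 10 genes over 12 groups, in normalized reads per kilobase of all annotated exons (left) and of the canonical transcript (right), with bars from 0. Trpv2 leads on both lengths, at 580 and 892, and the bars of Abhd6 and Pparg are near 0.

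The genes lie on 6 chromosomes of GRCm39. Cnr2 (ENSMUSG00000062585) spans bases 135622705 to 135647518 of chromosome 4 on the plus strand, as the deposited tables give it, and Faah bases 115824342 to 115875123 of the same chromosome on the minus strand. Chromosome 5 carries Daglb from base 143450339 to 143491697 on the plus strand, and Napepld (21867899 to 21906394) and Naaa (92405518 to 92426029) on the minus strand. Mgll lies on chromosome 6 from base 88701394 to 88805342 and Pparg from 115337912 to 115467360, both on the plus strand. Trpv2 occupies bases 62465312 to 62491341 of chromosome 11 on the plus strand, Abhd12 bases 150674413 to 150746661 of chromosome 2 and Abhd6 bases 14413010 to 14466871 of chromosome 14, the last 2 on the minus strand. The values are sums of reads over the exons of a gene. Exons of Daglb share 2309 bp with Rac1, and those of Napepld share 156 bp with Armc10, in each case on the other strand. Since the strand setting of the counting is not given in the sources used here, reads from these stretches could not be assigned with certainty, and the values of Daglb and Napepld carry that limit.

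**Figure D2:**
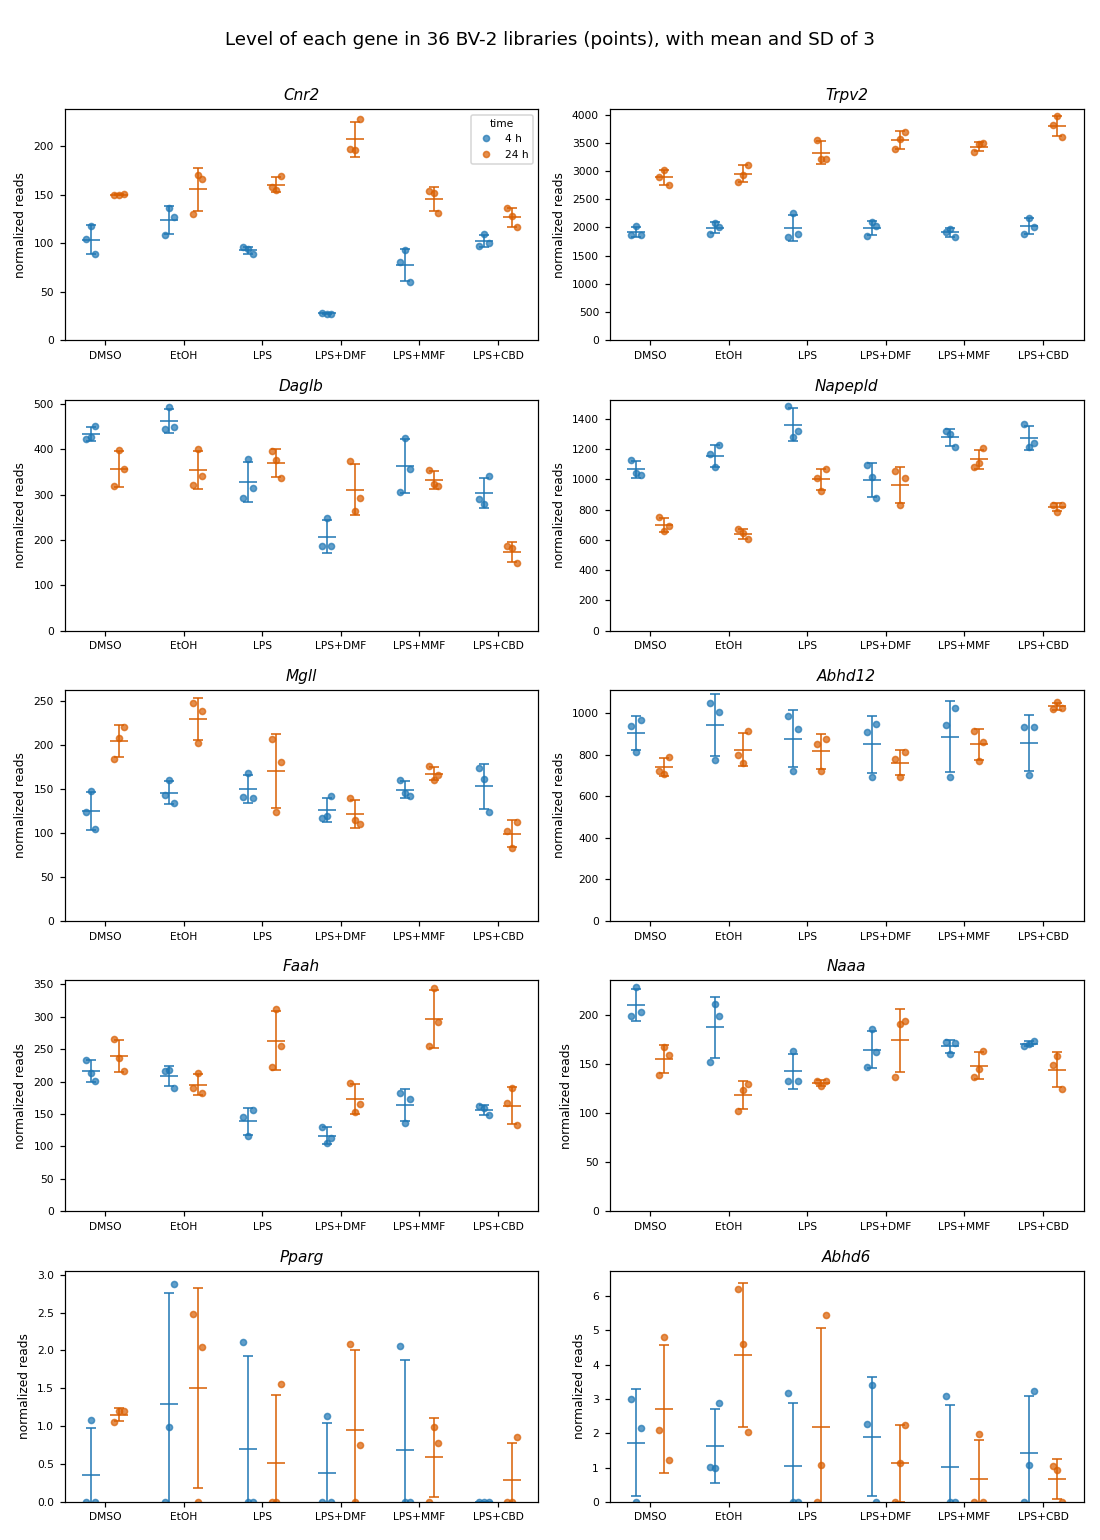
Level of each gene (normalized reads, axis from 0) in each of the 36 libraries, by treatment, at 4 h (blue) and 24 h (orange). Points are libraries, and the horizontal marks and bars are the mean and SD of 3. The 3 points of Cnr2 in LPS with DMF at 4 h lie between 27.3 and 28.4, below all other libraries, and the highest points of Pparg and Abhd6 are at 2.88 and 6.19.

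The receptor gene Cnr2 had the widest range of the 8 tested genes. Its group means ran from 27.7 ± 0.601 in LPS with DMF at 4 h to 207 ± 18.2 in LPS with DMF at 24 h, a ratio of 7.49. At 4 h its level was 95.9, 93.9 and 89.0 in the LPS libraries and 28.4, 27.3 and 27.3 in those of LPS with DMF, so the groups were far apart and the treated libraries nearly alike. Cnr2 thus fell by 1.71 on the log2 scale with DMF (SE 0.18, adjusted p = 0.000608), a fold of 0.305 on the scale of the test. The MMF libraries at 4 h, at 80.2, 92.8 and 60.1, overlapped those of LPS and passed no test (log2 fold change -0.27, SE 0.19, adjusted p = 0.805). Those of CBD at 4 h, at 96.8, 109.7 and 100.4, lay a little above the LPS libraries without passing the test (log2 fold change 0.14, SE 0.13, adjusted p = 0.994).

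At 24 h Cnr2 stood at 158, 155 and 169 in LPS and at 197, 196 and 228 in LPS with DMF. All DMF libraries were then above all LPS libraries, the reverse of 4 h, and the rise passed the test narrowly (log2 fold change 0.36, SE 0.12, adjusted p = 0.0466). Leaving out any 1 of the 6 libraries ended this call, with adjusted p from 0.0622 (without LPS with DMF replicate 1) to 0.191 (without LPS with DMF replicate 3), and DESeq2 gave 0.0738. The difference of the DMF effect between the times, 24 h minus 4 h, was 2.07 (SE 0.19, adjusted p = 1.04e-05), and it kept its call without any 1 of the 12 libraries. In LPS with CBD at 24 h the values of 136, 128 and 117 were all below those of LPS, and the log2 fold change of -0.33 missed the threshold (SE 0.13, adjusted p = 0.0525) but passed it in a single fit of 36 libraries (adjusted p = 0.038).

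Neither vehicle gave a call for Cnr2 in limma on 6 libraries when LPS was set against it. At 4 h the log2 fold change was -0.15 over DMSO (adjusted p = 0.551) and -0.40 over EtOH (adjusted p = 0.114), and at 24 h 0.11 and 0.06 (adjusted p = 0.554 and 0.803). Over EtOH at 4 h the LPS libraries were all below those of the vehicle, and the fit of 36 libraries called Cnr2 there (adjusted p = 0.0448). In the order of the 12 group means, the highest group stood apart from the next and the lowest from the one before it, by intervals of 1 SD that did not overlap. All other neighbours in that order overlapped. The group means of Nlrx1 (Pearson r = 0.966), Osbpl7 (0.9545) and Ptpro (0.953) followed those of Cnr2 most closely among 10096 genes, as a description over 12 groups that share libraries with every comparison given here.

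Trpv2, the CBD-sensitive channel, separated the libraries by time. At 4 h its group means lay between 1911 and 2022 in all 6 treatments, and at 24 h between 2892 and 3800.3. No library at 24 h was as low as any library at 4 h. Trpv2 rose from 4 h to 24 h in each treatment, by 0.54 on the log2 scale in EtOH (SE 0.06, adjusted p = 6.81e-05) up to 0.90 in LPS with CBD (SE 0.07, adjusted p = 5.9e-06).

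Against LPS, no drug gave a call for Trpv2. At 24 h the level was 3556, 3218 and 3214 in LPS and 3813, 3979 and 3609 in LPS with CBD, so that the lowest CBD library was still above the highest LPS library. In this comparison 58.7% of all genes tested had libraries that did not overlap. The log2 fold change of 0.20 missed the threshold (SE 0.08, adjusted p = 0.0647). It passed without LPS replicate 1 (adjusted p = 0.0369) and in a single fit of 36 libraries (adjusted p = 0.0265). It also passed in a fit with a replicate block (adjusted p = 0.0321), the replicate numbers being paired in this comparison. LPS over DMSO at 24 h also missed the threshold narrowly (log2 fold change 0.22, SE 0.07, adjusted p = 0.0536). There edgeR gave an adjusted p of 0.0483, DESeq2 0.0473, limma without LPS replicate 2 0.0448 and the fit of 36 libraries 0.0395. Mst1 (r = 0.990), C1qtnf6 (0.989) and Dhrs1 (0.987) had the most similar group means.

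Among the synthetic enzymes, Daglb had its lowest levels in 2 groups. The group means were 173 ± 21.6 in LPS with CBD at 24 h and 207 ± 36.1 in LPS with DMF at 4 h, against 304 to 462 in the 10 other groups, and this step in the order exceeded the SDs. At 24 h Daglb was at 397, 377 and 336 in LPS and at 188, 183 and 148 in LPS with CBD. It fell by 1.09 on the log2 scale (SE 0.13, adjusted p = 0.00015), with no overlap of libraries. This call held without any 1 of the 6 libraries.

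At 4 h Daglb was at 292, 378 and 315 in LPS and at 187, 249 and 186 in LPS with DMF. The fall of 0.67 on the log2 scale passed the test (SE 0.16, adjusted p = 0.0285), but was lost without LPS with DMF replicate 1 (adjusted p = 0.0745) or 3 (0.124) or LPS replicate 2 (0.0786) or 3 (0.0927). DMF at 24 h gave -0.26 (SE 0.14, adjusted p = 0.179), with libraries at 374, 265 and 293 that overlapped those of LPS, and was called without LPS with DMF replicate 1 (adjusted p = 0.0346). Neither MMF (log2 fold change 0.15 at 4 h and -0.15 at 24 h) nor CBD at 4 h (-0.10) gave a call.

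LPS lowered Daglb at 4 h. The libraries stood at 422, 427 and 452 in DMSO and at 444, 492 and 449 in EtOH, all above the LPS libraries. It changed by -0.41 over DMSO (SE 0.11, adjusted p = 0.0445) and -0.50 over EtOH (SE 0.11, adjusted p = 0.028). In each case leaving out any 1 library except LPS replicate 2 ended the call, with adjusted p of up to 0.163 without DMSO replicate 6 and up to 0.113 without LPS replicate 3. At 24 h neither comparison gave a call (log2 fold change 0.07 and 0.07). Bahcc1 (r = 0.977), Zbtb12 (0.961) and Nr0b2 (0.959) had the group means most like those of Daglb.

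Napepld was the gene of the set called higher with LPS at 24 h. Its level was 1006, 926 and 1068 in LPS, 749, 659.7 and 692 in DMSO and 671, 645 and 606 in EtOH, with the LPS libraries above all vehicle libraries. On the log2 scale the rise was 0.53 over DMSO (SE 0.08, adjusted p = 0.00118) and 0.65 over EtOH (SE 0.09, adjusted p = 0.000304), and both calls held without any 1 library. At 4 h the LPS libraries, at 1483, 1277 and 1321, were also above those of DMSO (1128, 1044 and 1028) and of EtOH (1167, 1079 and 1224). Over DMSO at 4 h the rise passed the test (log2 fold change 0.34, SE 0.08, adjusted p = 0.0223), although not without LPS replicate 1 (adjusted p = 0.0626) or 3 (0.0723) or DMSO replicate 5 (0.0632) or 6 (0.104). Over EtOH at 4 h it did not pass (log2 fold change 0.23, SE 0.08, adjusted p = 0.108).

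Both DMF at 4 h and CBD at 24 h lowered Napepld under LPS. At 4 h the DMF libraries stood at 1098, 1017 and 876, below all LPS libraries, and the log2 fold change was -0.45 (SE 0.11, adjusted p = 0.0283). This call was lost without LPS replicate 1 (adjusted p = 0.105) or 3 (0.0988) or LPS with DMF replicate 3 (0.121). At 24 h the CBD libraries stood at 832, 787 and 833, again below all LPS libraries, and Napepld changed by -0.28 on the log2 scale (SE 0.08, adjusted p = 0.0199). It was lost without LPS replicate 1 (adjusted p = 0.0533) or 3 (0.092) or LPS with CBD replicate 2 (0.0568). At 24 h the DMF value of -0.06 (adjusted p = 0.716) gave no call. The gene with the most similar group means was Ctu1 (r = 0.955), followed by Fam32a (0.9495) and Clec12a (0.947).

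Cnr2, Daglb and Napepld were the genes that fell with DMF at 4 h, so the 250 bases before the start of their canonical transcripts are shown. The starts come from GENCODE M39 on GRCm39 and differ from the gene coordinates of the deposited tables. The window of Daglb ends at base 143450247, where the deposited start is 143450339. That of Napepld begins at 21906534, where the deposited end is 21906394. In GENCODE M39 Napepld reaches to base 21923575, upstream of the canonical start used. The Daglb window overlaps an annotated exon of Daglb, and the Napepld window one of Gm71355. The sequences are written 5′ to 3′ on the strand of the gene, with capitals for matches to 4 motifs searched on both strands. These were TGACNNNGC (bound by NRF2), TGANTCA (AP-1), CACGTG (E-box) and the NF-kB motif, GGG and TTCC with any 3 bases between them.
Cnr2, chr4:135622446-135622695, plus strand: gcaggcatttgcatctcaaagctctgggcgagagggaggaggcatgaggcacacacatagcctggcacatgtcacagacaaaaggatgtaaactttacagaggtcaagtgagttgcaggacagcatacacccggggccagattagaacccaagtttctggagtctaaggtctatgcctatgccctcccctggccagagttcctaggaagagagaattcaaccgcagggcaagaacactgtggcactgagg
Daglb, chr5:143449998-143450247, plus strand: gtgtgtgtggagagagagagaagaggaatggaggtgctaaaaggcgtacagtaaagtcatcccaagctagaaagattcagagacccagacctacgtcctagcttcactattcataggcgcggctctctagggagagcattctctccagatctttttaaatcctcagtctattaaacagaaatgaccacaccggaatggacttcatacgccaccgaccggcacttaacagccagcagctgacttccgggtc
Napepld, chr5:21906534-21906783, minus strand: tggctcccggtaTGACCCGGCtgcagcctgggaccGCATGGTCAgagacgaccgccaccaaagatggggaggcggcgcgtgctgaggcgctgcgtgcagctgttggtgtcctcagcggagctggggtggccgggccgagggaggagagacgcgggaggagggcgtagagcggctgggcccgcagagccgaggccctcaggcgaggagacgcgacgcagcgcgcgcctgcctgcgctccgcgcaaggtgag
Those of Cnr2 and Daglb held no match to any of the 4 motifs. That of Napepld held 2 matches to the NRF2 motif, TGACCCGGC on the strand of the gene and TGACCATGC on the other strand, which do not overlap. Such a match was not limited to genes that fell with DMF. The promoter of Naaa (log2 fold change 0.20 with DMF at 4 h, not called) held TGACACCGC. That of Pparg, which was not tested, held TGACCCCGC. The motif occurred in 9.69% of the 21770 protein-coding promoters of this length, the AP-1 motif in 6.17%, the NF-kB motif in 4.7% and the E-box in 6.26%. A match is a description of the letters and not a bound site, and the absence of a match says only that these letters are not in this window.

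Of the enzymes that hydrolyse 2-arachidonoylglycerol, Mgll, the main one in brain, fell with CBD at 24 h. Its level was 206, 124 and 181 in LPS and 102, 82.7 and 112 in LPS with CBD, with LPS replicate 2 far below the other LPS libraries. Mgll changed by -0.75 on the log2 scale (SE 0.21, adjusted p = 0.0143), and it lost its call without LPS replicate 1 (adjusted p = 0.0553) or 3 (0.0592). DMF at 24 h, at 140.0, 114 and 110.3, overlapped LPS and gave no call (log2 fold change -0.46, SE 0.19, adjusted p = 0.106). With a replicate block, the numbers being paired here too, Mgll was called under DMF (adjusted p = 0.0263), as it was without LPS replicate 2 (0.01).

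Time raised Mgll in the vehicles. The log2 fold change of 24 h over 4 h was 0.69 in DMSO (SE 0.15, adjusted p = 0.00319) and 0.63 in EtOH (SE 0.13, adjusted p = 0.00184). It was 0.15 in LPS (adjusted p = 0.534) and -0.63 in LPS with CBD (adjusted p = 0.0111), where Mgll fell. LPS against either vehicle gave no call, although at 24 h Mgll was -0.44 over EtOH with an adjusted p of 0.102, or 0.0358 without LPS replicate 1. The nearest patterns over the 12 groups were those of Galk1 (r = 0.921), Prtn3 (0.9135) and Stk24 (0.9097).

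Abhd12, which encodes another serine hydrolase of this lipid and of lysophosphatidylserine, moved the other way with CBD at 24 h. Its level was 850.4, 721 and 878 in LPS and 1019, 1053 and 1026 in LPS with CBD, and the CBD libraries were above those of LPS and close to each other. It rose by a log2 value of 0.35 (SE 0.09, adjusted p = 0.013), a call that held without any 1 library. At 4 h Abhd12 ranged from 694 to 1049 over the libraries, and replicate 2 of each LPS-treated group and replicate 5 of each vehicle was the lowest of its group. No comparison of treatments at 4 h called it, with log2 fold changes between -0.10 and 0.01. Nudt16l1 (r = 0.918), Ppdpf (0.902) and Rhot1 (0.882) had the closest group means.

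Faah, the hydrolase of anandamide, fell with LPS at 4 h and gave no call at 24 h. At 4 h its level was 145, 116 and 156 in LPS, 234, 214 and 200.3 in DMSO and 216, 218 and 190.1 in EtOH, and every LPS library was below every vehicle library. In log2 terms Faah changed by -0.64 over DMSO (SE 0.14, adjusted p = 0.0191) and -0.58 over EtOH (SE 0.14, adjusted p = 0.0326). The first call was lost without any 1 of the DMSO libraries (adjusted p 0.0558 to 0.0613), and the second without any 1 library except LPS replicate 2 (adjusted p 0.0564 to 0.126, the last without EtOH replicate 4).

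At 24 h Faah stood at 222, 311 and 255 in LPS, above all EtOH libraries (191, 213 and 182) and overlapping those of DMSO (266, 237 and 217). Neither comparison passed (log2 fold change 0.14, SE 0.14, adjusted p = 0.531 over DMSO, and log2 fold change 0.42, SE 0.14, adjusted p = 0.0574 over EtOH), while over EtOH edgeR gave an adjusted p of 0.0455, DESeq2 0.0402 and limma without LPS replicate 1 0.0246. The LPS effect on Faah differed between the times by 0.76 against DMSO (SE 0.21, adjusted p = 0.0338) and by 1.0004 against EtOH (SE 0.20, adjusted p = 0.00842). The second held without any 1 of the 12 libraries. The first was lost in 8 of the 12, with adjusted p up to 0.093 without DMSO replicate 6 of 24 h.

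Both DMF and CBD lowered Faah under LPS at 24 h. The DMF libraries were at 198, 154 and 166 and the CBD libraries at 167, 189 and 133, all below those of LPS. The log2 fold change was -0.60 with DMF (SE 0.15, adjusted p = 0.0157) and -0.68 with CBD (SE 0.17, adjusted p = 0.00797). The CBD call held without any 1 library, and the DMF call was lost without LPS with DMF replicate 2 (adjusted p = 0.0565) or 3 (0.0673) or LPS replicate 3 (0.0552). With MMF at 24 h Faah was 0.18 (adjusted p = 1). The patterns most like that of Faah were those of Tsen34 (r = 0.945), Gna15 (0.944) and Pbxip1 (0.939).

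Naaa, the lysosomal amidase that prefers palmitoylethanolamide, fell with LPS at 4 h when set against DMSO. Its level was 133, 163 and 133 in LPS, 199, 229 and 204 in DMSO and 152, 211 and 199 in EtOH, and the EtOH libraries overlapped those of LPS. Naaa changed by -0.56 over DMSO (SE 0.14, adjusted p = 0.027) and -0.38 over EtOH (SE 0.16, adjusted p = 0.185). The first was lost without LPS replicate 1 (adjusted p = 0.0733) or 3 (0.108) or DMSO replicate 5 (0.0882) or 6 (0.0892). No drug gave a call for Naaa against LPS. DMF at 24 h came closest (log2 fold change 0.39, SE 0.15, adjusted p = 0.0851), with libraries at 137, 191 and 194, and it passed with the replicate block (adjusted p = 0.0467) or without LPS with DMF replicate 1 (0.0151). The 3 genes nearest to Naaa were Csad (r = 0.870), Scfd2 (0.865) and Cars2 (0.845).

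Counted over the set, LPS at 4 h changed 4 of the 8 tested genes against DMSO and 2 of 8 against EtOH. Of all genes tested, 14.1% and 10.2% were called in these comparisons. Faah and Daglb were lower against both vehicles, Naaa was lower and Napepld higher against DMSO. At 24 h LPS changed 1 of 8 genes against either vehicle, Napepld in each case, beside 22.7% and 20.5% of all genes. edgeR and DESeq2 each called 2 genes in both comparisons at 24 h. The median log2 fold change of the 8 genes was -0.11 against DMSO and -0.24 against EtOH at 4 h, and 0.12 in both at 24 h. Over all genes tested the median was between -0.00046 and 0.0092 in these comparisons. Markers moved with LPS as well. At 4 h Mbp was called lower against both vehicles, and the summed oligodendrocyte markers were 1082 to 1097 in LPS, 1310 to 1381 in DMSO and 1339 to 1474 in EtOH. Of 10 microglial markers tested, 4 were called higher with LPS over DMSO and 5 over EtOH at 24 h, with sums of 21246 to 29545 in LPS, 17310 to 22836 in DMSO and 19672 to 22825 in EtOH. At 4 h Cx3cr1 was higher over DMSO and Tmem119 lower over EtOH. The part of these markers in the result was not tested.

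**Figure D3:**
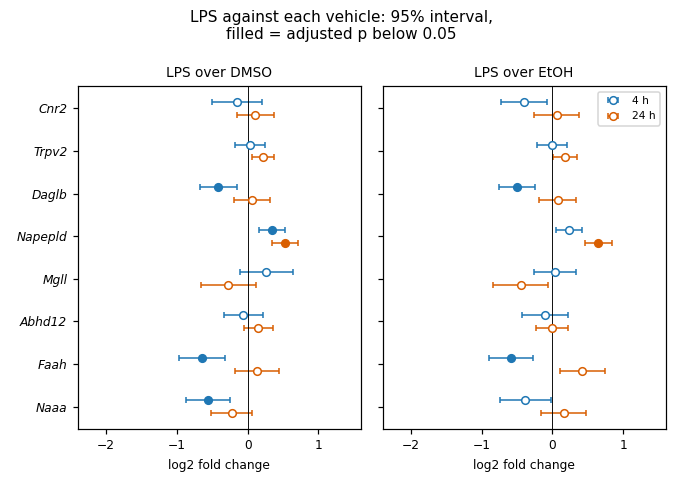
Log2 fold change of LPS over DMSO (left) and over EtOH (right) for the 8 tested genes, at 4 h (blue) and 24 h (orange), with bars for the 95% interval from limma. Filled points have an adjusted p below 0.05. Daglb and Faah are filled on the left of 0 against both vehicles at 4 h, and Napepld on the right of 0 against both at 24 h.

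Under LPS, DMF changed 3 of the 8 genes at 4 h, all lower, and 2 at 24 h, Cnr2 higher and Faah lower. The share of all genes called was 11.1% at 4 h and 25.1% at 24 h. With the replicate block, 4 genes were called at 24 h, with Mgll lower and Naaa higher added, and the number of all genes called went from 2926 to 4566. In the same 4 h comparison the summed level of the microglial markers was 18542 to 20570 in LPS with DMF and 22239 to 25324 in LPS, with Csf1r and Cx3cr1 called lower of 10 markers tested, and its part in the result was not tested.

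CBD changed none of the 8 genes at 4 h and 5 of 8 at 24 h, beside 0.00875% and 48.7% of all genes, and the 5 genes are 62.5% of the 8. Daglb, Mgll, Faah and Napepld were lower and Abhd12 was higher. The replicate block added Trpv2, and the fit of 36 libraries added Trpv2 (higher) and Cnr2 (lower). At 4 h 0 of the 8 genes had an unadjusted p below 0.05 in limma, and edgeR and DESeq2 called 0 of the 8. Over all genes 363 had an unadjusted p below 0.05 in limma, and edgeR called 1 and DESeq2 3. In the libraries of LPS with CBD at 24 h the share of mitochondrial reads and the level of Mbp were low. The summed level of the 3 oligodendrocyte markers, nearly all of it Mbp, was 726 to 885 there and 1112 to 1442 in LPS, while Mog was at or near 0 in all libraries. That of the microglial markers was 23240 to 31285 in LPS with CBD and 21246 to 29545 in LPS, a sum in which opposite changes meet, since of 10 markers tested Cd68 and Trem2 were higher and Csf1r, Cx3cr1 and Tmem119 lower with CBD. Their part in the result was not tested. LPS replicate 1 of 24 h had the lowest mitochondrial share of its group, 1.44%. Without it Daglb, Faah and Abhd12 were still called, while Mgll (adjusted p = 0.0553) and Napepld (0.0533) were not. The remaining LPS libraries were all above those of LPS with CBD in this share, so the refit does not test its part.

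**Figure D4:**
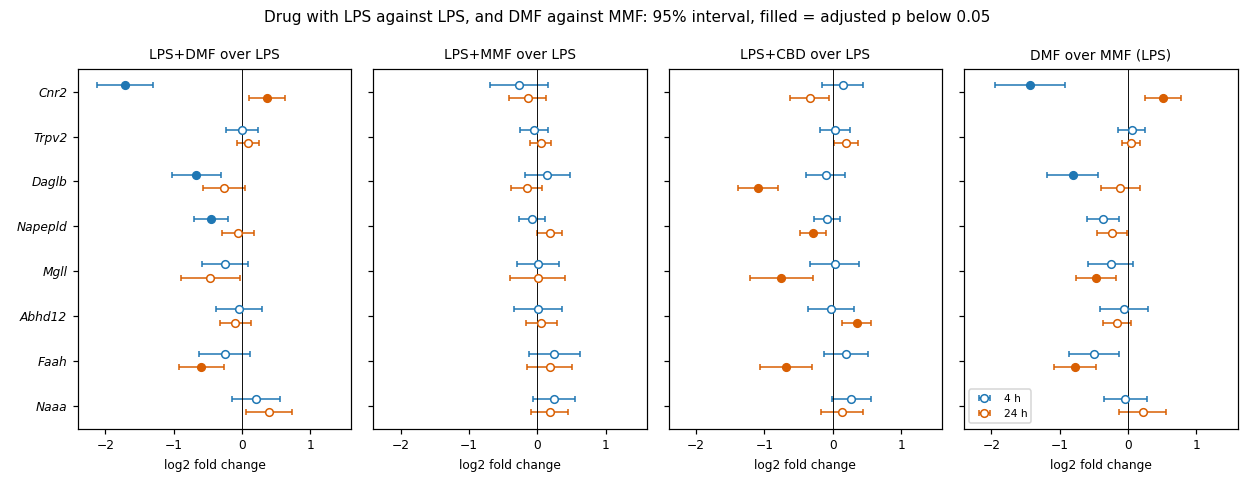
Log2 fold change under LPS of DMF, MMF and CBD over LPS alone, and of DMF over MMF, for the 8 tested genes at 4 h (blue) and 24 h (orange), with bars for the 95% interval from limma and filled points for an adjusted p below 0.05. Cnr2 lies at -1.71 with DMF at 4 h and at 0.36 at 24 h, all MMF points are open, and 5 CBD points are filled at 24 h.

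MMF gave no call among the 8 genes at either time. At both times 0 of the 8 had an unadjusted p below 0.05 in limma, and edgeR and DESeq2 called 0. Over all genes limma called 0.122% at 4 h and 0% at 24 h, with 843 and 440 genes at an unadjusted p below 0.05. With the replicate block 179 genes were called at 4 h and 206 at 24 h, none of them among the 8, and DESeq2 called 51 and 18. The DMSO and EtOH vehicles differed in 0 of the 8 genes at each time, and in 0 with edgeR and with DESeq2, beside 0% of all genes at 4 h (876 genes with the replicate block and 80 with DESeq2) and 0.00854% at 24 h. At an unadjusted p below 0.05, 0 of the 8 genes differed at 4 h and 2 at 24 h, Faah and Naaa, both higher in DMSO.

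DMF and MMF differ in that DMF carries a methyl ester at both carboxyl groups of fumaric acid and MMF at a single one, with a free acid at the other. They were given at the same dose and times, so their libraries were compared directly, in 2 comparisons adjusted over all genes tested in each. At 4 h, Cnr2 was lower with DMF than with MMF (log2 fold change -1.44, SE 0.23, adjusted p = 0.00582), as was Daglb (log2 fold change -0.81, SE 0.17, adjusted p = 0.0164). These were 2 of 8 genes beside 8.34% of all genes. The Cnr2 call held without any 1 library, and the Daglb call was lost without LPS with MMF replicate 2 (adjusted p = 0.0641) or 3 (0.0678) or LPS with DMF replicate 3 (0.0768).

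At 24 h, Cnr2 was higher with DMF than with MMF (log2 fold change 0.50, SE 0.12, adjusted p = 0.016), and Faah (log2 fold change -0.78, SE 0.14, adjusted p = 0.0052) and Mgll (log2 fold change -0.47, SE 0.13, adjusted p = 0.0311) were lower. These were 3 of 8 genes beside 21.5% of all genes. The Faah call held without any 1 library. That of Cnr2 was lost without LPS with DMF replicate 3 (adjusted p = 0.0827) or LPS with MMF replicate 3 (0.0646). The Mgll call was lost without LPS with DMF replicate 2 (0.0918) or 3 (0.122) or LPS with MMF replicate 1 (0.1) or 3 (0.0911). With the replicate block, the numbers being paired at 24 h, Napepld was also lower with DMF (log2 fold change -0.24, adjusted p = 0.0158, against 0.11 without it), and the number of all genes called went from 2508 to 4639.

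For the other genes the difference of DMF from MMF was not called, and its 95% interval shows what the data allow. At 4 h the interval of the log2 fold change was -0.86 to -0.13 for Faah, -0.61 to -0.14 for Napepld, -0.58 to 0.08 for Mgll, -0.41 to 0.29 for Abhd12, -0.36 to 0.28 for Naaa and -0.15 to 0.25 for Trpv2. Libraries were apart for 29.6% of all genes tested at 4 h, in either direction. Among these genes were Faah, Napepld and Mgll, all lower with DMF, and Napepld was called without LPS with DMF replicate 1 (adjusted p = 0.0336). At 24 h the interval was -0.40 to 0.18 for Daglb, -0.46 to -0.02 for Napepld, -0.37 to 0.05 for Abhd12, -0.13 to 0.56 for Naaa and -0.09 to 0.18 for Trpv2. CBD was given at another dose and in another vehicle and is set beside the fumarates without a comparison. The log2 fold change of Faah against LPS at 24 h was -0.60 with DMF, 0.18 with MMF and -0.68 with CBD, and that of Daglb was -0.26, -0.15 and -1.09. The 3 drug comparisons at each time share the same LPS libraries, and the comparisons of LPS with the vehicles share them too.

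Changes between 4 h and 24 h within the vehicles were common over all genes tested. In DMSO 7 of 8 genes were called, or 4 to 7 with 1 library left out, beside 51.6% of all genes. In EtOH 5 of 8 (62.5%) were called, close to the 58.6% of all genes. Napepld fell by 0.63 on the log2 scale in DMSO (adjusted p = 0.000134) and by 0.87 in EtOH (adjusted p = 1.81e-05). Naaa (log2 fold change -0.46 and -0.67) and Daglb (-0.31 and -0.41) were lower at 24 h in both vehicles as well. In DMSO, the call of Daglb (adjusted p = 0.0276) was lost without replicate 6 of 4 h (0.0991) or replicate 4 (0.0928) or 6 (0.0697) of 24 h, that of Cnr2 (log2 fold change 0.51) without replicate 6 of 4 h (0.0593), and that of Abhd12 (-0.31) without that library (0.0644) or replicate 5 of 24 h (0.0508). In EtOH, Cnr2 (0.31, adjusted p = 0.107) was called without replicate 4 of 24 h (0.0337) and Abhd12 (-0.21, adjusted p = 0.159) without replicate 5 of 4 h (0.0077).

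In the LPS-treated groups, 4 of 8 genes were called in LPS (beside 48.9% of all genes), 4 in LPS with DMF (58.8%), 3 in LPS with MMF (49.5%) and 4 in LPS with CBD (63.2%). Cnr2 rose by 0.78 on the log2 scale in LPS, 2.85 in LPS with DMF and 0.91 in LPS with MMF (adjusted p = 0.00116, 2.36e-06 and 0.00169), and its value of 0.30 in LPS with CBD was not called (adjusted p = 0.0853). Faah rose in LPS (0.90, adjusted p = 0.00157), LPS with DMF (0.56, 0.0105) and LPS with MMF (0.84, 0.000871), and was 0.03 in LPS with CBD (adjusted p = 0.865). Daglb fell over time with CBD (-0.82, adjusted p = 0.000469) and rose with DMF (0.57, adjusted p = 0.0128). The latter call was lost without LPS with DMF replicate 1 of 24 h (adjusted p = 0.0568) or replicate 3 of 4 h (0.0518). Napepld fell in LPS (-0.45, adjusted p = 0.00325) and in LPS with CBD (-0.65, adjusted p = 6.07e-05), and Mgll fell in LPS with CBD as given above. Abhd12 was called without replicate 2 of 4 h in LPS with DMF (adjusted p = 0.0319, against 0.315), and in LPS with CBD without replicate 1 (0.0414) or 3 (0.0499) of 4 h (against 0.061).

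**Figure D5:**
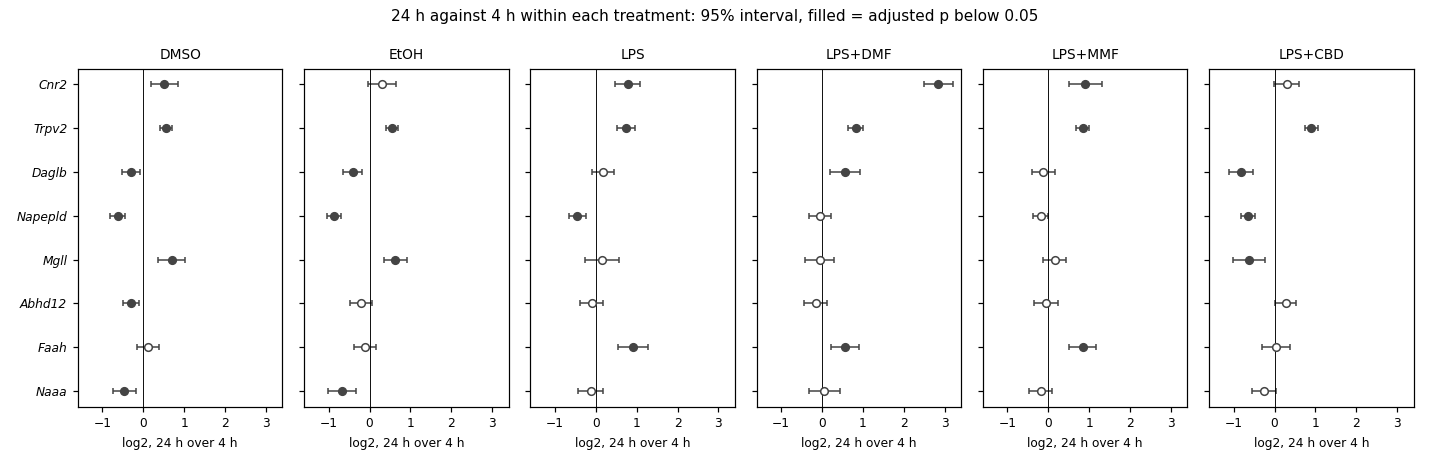
Log2 fold change of 24 h over 4 h for the 8 tested genes within each of the 6 treatments, with bars for the 95% interval from limma and filled points for an adjusted p below 0.05. Trpv2 is filled to the right of 0 in all 6 panels, and Cnr2 in LPS with DMF, at 2.85, is the point farthest from 0.

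The effects themselves were then compared between the times. The CBD effect was more negative at 24 h than at 4 h for Daglb (difference -0.99, SE 0.18, adjusted p = 0.00123) and Faah (-0.87, SE 0.23, adjusted p = 0.0112), and both calls held without any 1 of the 12 libraries. It was also more negative for Mgll (-0.78, adjusted p = 0.0441) and Cnr2 (-0.47, adjusted p = 0.0457). These were 4 of 8 genes, beside 32% of all genes. The call of Mgll was lost in 8 of the 12 refits without 1 library, with adjusted p up to 0.107 without LPS replicate 1 of 24 h, and that of Cnr2 in 11 of 12, with adjusted p up to 0.103 without LPS with CBD replicate 3 of 24 h. With the replicate block within each time, which pairs LPS with CBD and LPS, Cnr2 was not called (adjusted p = 0.0553) and Abhd12 was (difference 0.38, adjusted p = 0.00962, against 0.133 without it). Abhd12 was also called without LPS replicate 2 of 4 h (adjusted p = 0.0285), and DESeq2 gave 0.0959 for Cnr2.

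The DMF effect differed between the times for Cnr2 alone of the 8 genes, beside 16.3% of all genes, and with the replicate block also for Napepld (difference 0.39, adjusted p = 0.0232, against 0.0996 without it). Napepld was called as well without LPS with DMF replicate 2 of 24 h (adjusted p = 0.0477). The MMF effect differed for none of the 8 in limma, edgeR or DESeq2, with 1 gene at an unadjusted p below 0.05 and 0% of all genes called. The LPS effect differed for Faah against DMSO, 1 of 8 genes beside 9.46% of all genes, and without LPS replicate 2 of 4 h for Daglb also (adjusted p = 0.0308, against 0.0903), while Faah was then lost (0.0549). Against EtOH it differed for 3 of 8 beside 9%, namely Faah, Daglb (0.56, adjusted p = 0.0459) and Napepld (0.41, adjusted p = 0.0435). The Daglb call was lost in 10 of 12 refits (adjusted p up to 0.101 without LPS replicate 3 of 4 h) and with edgeR (0.0522), and the Napepld call in 8 of 12 (up to 0.112 without LPS replicate 3 of 24 h).

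Other genes of the pathway were read from lists chosen by function. Of 18 further receptors and channels on which cannabinoids or related lipids can act, Cnr1, Gpr6 and Gpr12 were not listed, and Trpv1, Ppara, Trpa1 and Htr1a had a median of 0. Ppard, the sister receptor of Pparg, was well expressed (median level 1179), rose with DMF at 4 h (by 1.31, adjusted p = 0.01) and fell with LPS at 24 h (log2 values of -0.46 over DMSO and -0.56 over EtOH, adjusted p = 0.0105 and 0.00256). Gpr18, an orphan receptor with proposed lipid ligands, was low, at a median level of 4.63 and at most 27.6 in a library. Where it was tested against a group below the filter, it had passed through the other group, so no change is given for it.

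Of 7 genes that supply diacylglycerol or turn it into 2-arachidonoylglycerol, 6 were tested at 4 h against either vehicle, and 2 fell with LPS against each, the phospholipases Plcb2 and Plcg1, beside 14.1% (DMSO) and 10.2% (EtOH) of all genes called. At 24 h Plcb2 was instead higher with LPS over DMSO (0.36, adjusted p = 0.0154) and EtOH (0.40, 0.0119), Plcb3 was higher over EtOH (0.38, 0.0249), and Plcg1 was lower over DMSO (-0.38, 0.0125). With CBD at 24 h, Dagla, the other diacylglycerol lipase, rose (0.56, adjusted p = 0.0149) while Daglb fell, and Plcg2 fell (-0.46, adjusted p = 0.00421). Dagla had a median level of 79.1 against 339 for Daglb, on a scale that does not account for gene length. Of 10 other genes of N-acylethanolamine synthesis, 6 were tested with CBD at 24 h, of which 4 rose and 1 fell, beside 48.7% of all genes called. Among these, Gdpd1, a lysophospholipase D that releases N-acylethanolamines, rose by 1.67 (adjusted p = 4.03e-06), Gdpd3 by 0.70 (0.000606), Abhd4 by 0.34 (0.0369) and Ptpn22 by 0.51 (0.00789), while Inpp5d fell by 0.51 on the log2 scale (0.0105) and Napepld fell as given above. With DMF at 24 h Gdpd1 fell (-0.36) and Ptpn22 and Inpp5d rose (0.91 and 0.28).

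Of the genes listed as carriers, the lipid carriers Fabp4 and Fabp5 were among those LPS raised at both times. Fabp4 rose by 2.25 over DMSO at 4 h (adjusted p = 0.000112) and by 2.16 at 24 h (2.1e-06), and Fabp5 by 0.75 and 1.32 (0.000183 and 1.49e-05). At 4 h DMF lowered Fabp4, the 1 gene called of 4 tested in this list, beside 11.1% of all genes. At 24 h DMF lowered Fabp4 and Fabp5 (-0.44 and -0.51) and CBD raised both further (0.68 and 0.66). In the same CBD comparison the carrier gene Scp2 and the nucleoside transporter gene Slc29a1 fell, beside 48.7% of all genes called. Fabp3, at a median level of 7.82, passed the filter there through the CBD group, and no change is given for it.

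Enzymes that oxidise endocannabinoids were also called under DMF and CBD. Ptgs2, the inducible cyclooxygenase, rose with LPS at 4 h (2.61 over DMSO, adjusted p = 6.12e-05). Against LPS it was called higher with DMF already at 4 h, the 1 gene called of 4 tested, beside 11.1% of all genes. At 24 h Ptgs2 was also higher than in LPS with DMF (0.89, adjusted p = 0.0136) and fell with CBD (-0.73, adjusted p = 0.0132). The lipoxygenase gene Alox5 also rose with DMF (0.83) and fell with CBD (-1.92) at 24 h, and Alox15 rose with both (0.94 and 2.41). These were 3 of 4 listed genes in each of the comparisons at 24 h, beside 25.1% of all genes called with DMF and 48.7% with CBD.

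Although Pparg itself was near 0, genes listed as its partners or targets were expressed. Of 11 such genes, 10 were tested with CBD at 24 h, of which 5 rose (Abcg1, Acsl1, Nr1h3, Plin2 and Rxra) and 3 fell (Angptl4, Cpt1a and Lpl), beside 48.7% of all genes called. Their median log2 fold change was 0.35, beside -0.0019 over all genes tested. Plin2, a lipid droplet protein, rose by 1.62 (adjusted p = 3.51e-06), and Lpl, lipoprotein lipase, fell by 1.29 on the log2 scale (0.000798). Plin2 was the gene of these lists that changed with MMF at 4 h (-0.53, adjusted p = 0.049). With DMF at 24 h Abcg1 and Rxra rose and Acsl1, Cpt1a and Lpl fell, 5 of 10 tested genes beside 25.1% of all genes called. With DMF at 4 h Rxra was higher too, but Abcg1 was lower, as was Nr1h3, beside 11.1% of all genes called. The DMF effect was higher at 24 h than at 4 h for Abcg1, Nr1h3 and Plin2 and lower for Lpl, beside 16.3% of all genes.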

How the data were processed

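Transcripts of 36 BV-2 libraries were sequenced, in 12 groups of 3. Per the labels, the authors checked reads with FastQC 0.12.1, trimmed them with cutadapt 4.4 and Trimmomatic 0.39, aligned them to GRCm39 with HISAT2 2.2.1, counted them with HTSeq 2.0.3 and compared groups with DESeq2 1.40.2 in R 4.3.1. The authors deposited 30 pairwise tables, whose library columns are a signal, the count of a gene divided by a DESeq2 size factor. Their columns of fold changes and p-values were not used. Whole reads were recovered in 155 of 180 columns, where 100% of values came within 0.01 of a whole read, and the joint scale rests on these. On these reads edgeR called between 0 and 7353 genes in a comparison, where limma called 0 to 7371. Comparisons used limma 3.58.1 in R 4.3.3 on log2(normalized count + 1) of the 6 libraries of a table, for genes with a value of at least 10 in 3 libraries, with an intensity-dependent prior variance and Benjamini-Hochberg adjustment over all genes tested. Differences between times used 12 libraries. The fits were tested on simulated data. Alternatives were a pseudocount of 5, no filter, edgeR 4.0.16 and DESeq2 1.42.0 on recovered reads, a single fit of 36 libraries, a replicate block, and each library left out. Of the 36 pairs of libraries within a group, each differed by more than sampling noise. Normalized counts have a precision set by 14110424 to 26676607 counted reads in a library. Replicate numbers paired the libraries, with every correlation of their deviations over 0.1, in the DMF and CBD comparisons against LPS at both times, in MMF against LPS and DMF against MMF at 24 h, in DMSO against EtOH, and over time in LPS and LPS with MMF. Genes were named as members of the set or of the lists, and for likeness as the 3 genes with the highest r among those with a mean of at least 50. Members and lists were chosen with earlier results of these data known. CBD against the fumarates was not tested, since dose and vehicle differ. LPS with a drug against its own vehicle was not tested either, and there LPS and drug differ together. As the vehicle of LPS alone is not given, a drug compared with LPS alone may differ from it in vehicle as well.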

Additional observations from a re-analysis of the deposited data

Results flagged for a closer look

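A change of effect between 4 h and 24 h was found for 9 combinations of gene and contrast, as a log2 difference (24 h minus 4 h) with an adjusted p below 0.05 in limma over 12 libraries. Cnr2 had the largest of them in size, 2.07 for DMF against LPS (adjusted p = 1.04e-05), where the fold change was negative at 4 h and positive at 24 h. For CBD against LPS the difference was -0.99 for Daglb (adjusted p = 0.00123), -0.87 for Faah (0.0112), -0.78 for Mgll (0.0441) and -0.47 for Cnr2 (0.0457). For LPS against EtOH it was 1.0004 for Faah (adjusted p = 0.00842), 0.56 for Daglb (0.0459) and 0.41 for Napepld (0.0435), and for LPS against DMSO 0.76 for Faah (0.0338). The contrasts of LPS with either vehicle share the LPS libraries. No reason for these differences was tested.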

How the results depend on the processing

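No log2 fold change that was called in the analysis as reported turned its sign under any alternative. Of the 59 calls, 59 stayed called with a pseudocount of 5, 52 without the filter, 58 with edgeR and 57 with DESeq2, and 48 of 50 in a single fit of 36 libraries. That fit gained 12 calls and lost Daglb (adjusted p = 0.0868) and Abhd12 (0.0914) over time in DMSO. Without the filter, more genes are adjusted for. The number of the 8 genes called moved by more than 1.5 times as follows. For DMF against MMF at 4 h it was 4 in the fit of 36 libraries and 4 with the replicate block. For LPS against DMSO at 24 h it was 2 with edgeR, 2 with DESeq2 and 2 in the fit of 36 libraries, and for LPS against EtOH at 24 h 2, 2 and 3. For DMF against LPS at 24 h it was 1 without the filter, 1 with DESeq2, 4 in the fit of 36 libraries and 4 with the replicate block. For the differences between the times it was 0 without the filter for LPS against DMSO, 1 for LPS against EtOH and 2 for CBD, and 2 with the replicate block for DMF. Apart from the filter, the cause was not tested. Leaving out 1 library gave 0 to 4 genes for LPS against DMSO and 0 to 2 for LPS against EtOH at 4 h, 1 to 3 for DMF against LPS and 1 to 3 for DMF against MMF at 4 h, and at 24 h 1 to 2 for LPS against DMSO, 1 to 3 for LPS against EtOH, 0 to 3 for DMF against LPS, 3 to 5 for CBD against LPS and 1 to 3 for DMF against MMF. Over time in DMSO it gave 4 to 7, and for the differences between the times 0 to 1 (LPS against DMSO), 1 to 2 (LPS against EtOH), 1 to 2 (DMF) and 2 to 4 (CBD). Where the replicate numbers did not pair the libraries, the replicate block gave calls for Napepld (adjusted p = 0.016) and Faah (0.04) in DMF against MMF at 4 h and for Abhd12 over time with CBD (0.0408). Of the 47 calls that could be refitted with the replicate block 46 held, 9 were gained, and 1 was lost, Cnr2 in the difference for CBD. Pparg and Abhd6 were too low for a test at this depth, and no alternative called them. Over all genes tested, the number called moved by more than 1.5 times in these cases. With the replicate block it went from 2926 to 4566 for DMF against LPS at 24 h, from 949 to 1740 and from 2508 to 4639 for DMF against MMF at 4 h and 24 h, from 14 to 179 and from 0 to 206 for MMF against LPS, from 0 to 876 and from 1 to 20 for DMSO against EtOH, from 1 to 4 for CBD against LPS at 4 h and from 0 to 5 for the MMF difference between the times. In the fit of 36 libraries it went at 4 h from 1609 to 2435 for LPS against DMSO, from 1257 to 2580 for DMF against LPS, from 949 to 2422 for DMF against MMF, from 14 to 55 for MMF against LPS, from 1 to 3 for CBD against LPS and from 0 to 3 for DMSO against EtOH, and at 24 h from 0 to 6 for MMF against LPS and from 1 to 0 for DMSO against EtOH. DESeq2 called 51 and 18 genes for MMF against LPS, 80 and 3 for DMSO against EtOH and 3 for CBD against LPS at 4 h, and without the filter there were 2 for the last and 3 for MMF against LPS at 24 h.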
